A study of Mus musculus with 42 samples.

Results

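The genes described here are 31 genes of hepatic cholesterol synthesis, cholesterol uptake and the control of the transcription factor SREBP2, followed through the livers of lean and obese WT and ChemR23 knockout mice. They were taken as a named list of genes, and all 31 were found among the 19758 gene names of the study, 30 under their own symbol and Msmo1 under an older symbol, Sc4mol. All 31 passed the filter on low counts in each of the 6 comparisons. Whole livers came from 42 male C57BL/6J mice, 7 in each of 6 groups, with 1 RNA sequencing library per mouse. WT lean and KO lean mice ate a control diet with 10% of energy from fat, and WT obese and KO obese mice ate a high fat diet with 60%, both from 6 weeks of age and for 15 weeks. WT obese+RvE1 and KO obese+RvE1 mice ate the high fat diet and were then injected intraperitoneally with 300 ng of RvE1 on 4 days before harvest on day 5, while mice of the other groups received an ethanol vehicle in buffered saline. The KO mice carry a CRISPR/Cas9 deletion of ChemR23 in the whole body, not in liver cells alone, and the WT mice were littermates. RvE1 is a lipid mediator made from eicosapentaenoic acid, and ChemR23, encoded by Cmklr1, is a receptor that binds it.

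The liver makes cholesterol from acetyl-CoA in a long chain of reactions. The early steps build isoprenoid units, which are also used to modify proteins, and the later steps close squalene into a ring and trim lanosterol to cholesterol. SREBP2, encoded by Srebf2, switches these enzymes on together when sterols are low. Scap escorts SREBP2 out of the endoplasmic reticulum, and Insig1 and Insig2 hold it back when sterols are plentiful. Cholesterol also reaches the liver in lipoproteins, is moved between membranes by Stard4, and is stored as esters made by Soat1 and Soat2.

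Reads on listed genes ran from 15992525 to 43841120 per mouse, with a median of 24298290. The 7 hepatocyte markers were listed in every table, and none of them passed in any of the 6 comparisons. Cmklr1 had 40.8 to 114 normalized counts in WT lean mice and 9.72 to 22.6 in KO lean mice, and 33.3 to 102 in WT obese mice against 5.08 to 23.2 in KO obese mice, so the genotypes did not overlap. In bulk liver, fewer cells of a type and less RNA per cell cannot be told apart. The mice are named by the number and letters of their labels, and what the opening number stands for is not given in the sources used here.

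Levels were compared between genes as normalized count per kb of annotated exon. In WT lean liver Lcat, the secreted enzyme that esterifies cholesterol on lipoproteins, had the highest level at 4876 ± 745 per kb (SD, n = 7). Insig2 followed at 2953 ± 1229 per kb and Insig1 at 1887 ± 399 per kb. Neighbours in this order overlapped, with Lcat from 3979 to 6030 per kb, Insig2 from 1793 to 5351 per kb and Insig1 from 1144 to 2351 per kb. Of the 20 genes counted as synthesis enzymes, Sc5d was highest at 1601 ± 231 per kb. Acat1 followed at 1500 ± 326 per kb and Ebp at 1316 ± 241 per kb, and neighbours again overlapped. Acat1 is a mitochondrial thiolase that was counted with the early enzymes, whereas Acat2 is the cytosolic thiolase that opens the pathway. Srebf2 itself stood at 130 ± 29.3 per kb, beside Fdps at 130 ± 62.9 per kb and Sqle at 142 ± 69.5 per kb. The lowest levels were those of Mvk, at 40.9 ± 15.9 per kb, Lss, at 30.4 ± 8.93 per kb, and Soat1, at 8.40 ± 2.20 per kb. Soat2, the esterifying enzyme of hepatocytes, was at 255 ± 62.2 per kb, and its lowest mouse, at 204 per kb, lay above the highest Soat1 value, 11.6 per kb. These levels were described without a test, and they depend on the exon length assigned to each gene. Exons of Fdps share 1124 bases with Gm43738 on the same strand, so its reads are uncertain, and exons of Hmgcs1, Fdft1, Lss, Cyp51, Idi1, Ggps1 and Scap overlap a gene on the opposite strand, which counting without strand could not tell apart.

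The comparison of WT obese with WT lean mice asks what the high fat diet does to these genes when ChemR23 is present. In WT obese liver 4 of 31 members (12.9%) passed an adjusted p of 0.1, against 6.27% of the 14012 genes tested. With the identifier number of the mice as a replicate block, 0 members and 279 genes in all passed. All 4 were lower, where 2.61% of all genes passed as lower and 3.65% as higher. They were Pmvk, a kinase of the mevalonate segment, Insig2, which retains the Scap and SREBP2 complex, Tm7sf2, a sterol reductase that acts after Cyp51, and Stard4, which carries sterol between membranes. The median log2 fold change over the members was -0.15, against 0.00 over all genes, and 23 of the 31 values were negative. At an unadjusted p of 0.05, 10 members and 2545 genes were past the threshold. Which members passed depended on single mice. With 1 mouse left out, 1 passed without 6RL, 2 without any of 19R, 21L, 21R, 26L, 26R, 8R, 27-2R, 27RL or 6R, and 7 without 22L, 6 of them lower and Acat1 higher. With each library scaled to the same total, 2 passed, Pmvk and Insig2.

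Pmvk ran from 358 to 1178 normalized counts in WT lean mice, with a median of 722, and from 220 to 420 in WT obese mice, with a median of 284. The groups overlapped, but 4 of the 7 WT obese mice lay below the lowest WT lean mouse. Pmvk fell by 1.03 on the log2 scale (standard error 0.25, adjusted p = 0.0323). The same gene passed in the KO mice. It ran from 326 to 997 in KO lean mice, with a median of 579, and from 205 to 490 in KO obese mice, with a median of 331. There 3 of 7 KO obese mice were below every KO lean mouse, and the log2 fold change was -0.82 (standard error 0.25, adjusted p = 0.0376). Both calls held in all 14 fits that left out 1 mouse, and neither held with the identifier number as a replicate block (adjusted p = 0.104 in WT and 0.116 in KO). Leaving out all mice of 1 number ended the WT call for number 6, 21 or 27 (adjusted p from 0.136 to 0.161) and the KO call for number 10 or 20 (adjusted p = 0.283 and 0.182).

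Tm7sf2 was the other member that passed in both genotypes. WT lean mice ran from 902 to 1320 normalized counts, with a median of 1086, and WT obese mice from 465 to 1078, with a median of 824. Of the WT obese mice 5 were below the lowest WT lean mouse, and the log2 fold change was -0.55 (standard error 0.17, adjusted p = 0.0975). This call was lost with the block (adjusted p = 0.339) and was kept in 3 of the 14 fits that left out 1 mouse. In KO mice the same gene ran from 1010 to 1653 in lean liver, with a median of 1377, and from 436 to 1039 in obese liver, with a median of 720. Here 6 of 7 KO obese mice lay below every KO lean mouse. The log2 fold change was -0.90 (standard error 0.21, adjusted p = 0.0140), and this call held under all 10 settings, the block included (adjusted p = 0.0497). Exons of Tm7sf2 share 532 bases with Vps51 on the same strand, so some of its reads cannot be assigned to 1 gene.

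Because Pmvk and Tm7sf2 passed in both diet comparisons, their promoters were read from RefSeq (GRCm38.p6), in windows from 250 bases before to 50 bases after the transcription start. Of the 31 members 24 had an entry, and Acat1, Fdps, Fdft1, Sqle, Stard4, Soat2 and Scarb1 did not. The sterol regulatory element was searched as TCACNCCAC on both strands. It was present in 1 of 30 member promoters (3.33%), that of Hmgcs1, and in 1.24% of all 32851 promoters. CCAAT, the letters bound by NF-Y, was searched on both strands and lay in 21 of 30 member promoters (70.0%), against 37.4% of all promoters. CACGTG, an E-box, lay in 6 of 30 (20.0%), against 7.15% of all promoters. These are matches of letters in a short window, and their absence says nothing of a factor. The 250 bases before the start are printed for Pmvk, Tm7sf2, Insig2 and Hmgcs1 in lower case. Pmvk had 2 start sites listed and Insig2 had 3, and only the site nearest the annotated gene start is printed. Which site is used in these livers was not tested. Capitals mark the sterol regulatory element and CCAAT, which appears as ATTGG where the match is on the other strand. No promoter met the rule for printing, which asked for a sterol regulatory element in a gene that passed in both diet comparisons. These 4 were chosen after the values were seen, Pmvk, Tm7sf2 and Insig2 for their diet calls and Hmgcs1 as the only one with the element.
Pmvk, chr3:89454291-89454540, plus strand: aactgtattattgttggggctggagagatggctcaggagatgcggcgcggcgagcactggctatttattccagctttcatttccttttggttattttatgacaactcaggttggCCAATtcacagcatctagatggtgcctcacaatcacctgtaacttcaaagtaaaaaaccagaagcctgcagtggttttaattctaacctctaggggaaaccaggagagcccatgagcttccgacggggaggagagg
Tm7sf2, chr19:6067851-6068100, minus strand: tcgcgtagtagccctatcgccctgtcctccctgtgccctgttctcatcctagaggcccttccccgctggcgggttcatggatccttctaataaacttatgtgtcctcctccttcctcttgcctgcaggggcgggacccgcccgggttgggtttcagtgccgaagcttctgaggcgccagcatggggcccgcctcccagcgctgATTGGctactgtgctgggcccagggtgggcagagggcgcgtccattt
Insig2, chr1:121332590-121332839, minus strand: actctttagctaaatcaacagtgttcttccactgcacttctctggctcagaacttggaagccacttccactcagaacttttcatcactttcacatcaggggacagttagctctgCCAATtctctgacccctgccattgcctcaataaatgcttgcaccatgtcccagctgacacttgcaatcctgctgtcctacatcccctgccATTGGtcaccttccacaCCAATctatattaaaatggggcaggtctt
Hmgcs1, chr13:119690101-119690350, plus strand: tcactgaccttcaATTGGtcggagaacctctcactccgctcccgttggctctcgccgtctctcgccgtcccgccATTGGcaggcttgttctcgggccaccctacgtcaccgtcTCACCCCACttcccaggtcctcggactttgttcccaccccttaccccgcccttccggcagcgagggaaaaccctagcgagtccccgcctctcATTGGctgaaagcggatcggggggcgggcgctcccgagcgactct
Pmvk had 1 CCAAT, whose first base lay at -136, and Tm7sf2 had 1, at -47. Insig2 had 3, at -136, -46 and -29, and Hmgcs1 had 3 in these bases, at -237, -176 and -45, beside its sterol regulatory element at -137. None of the matches in these 4 sequences overlapped another.

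**Figure D1:**
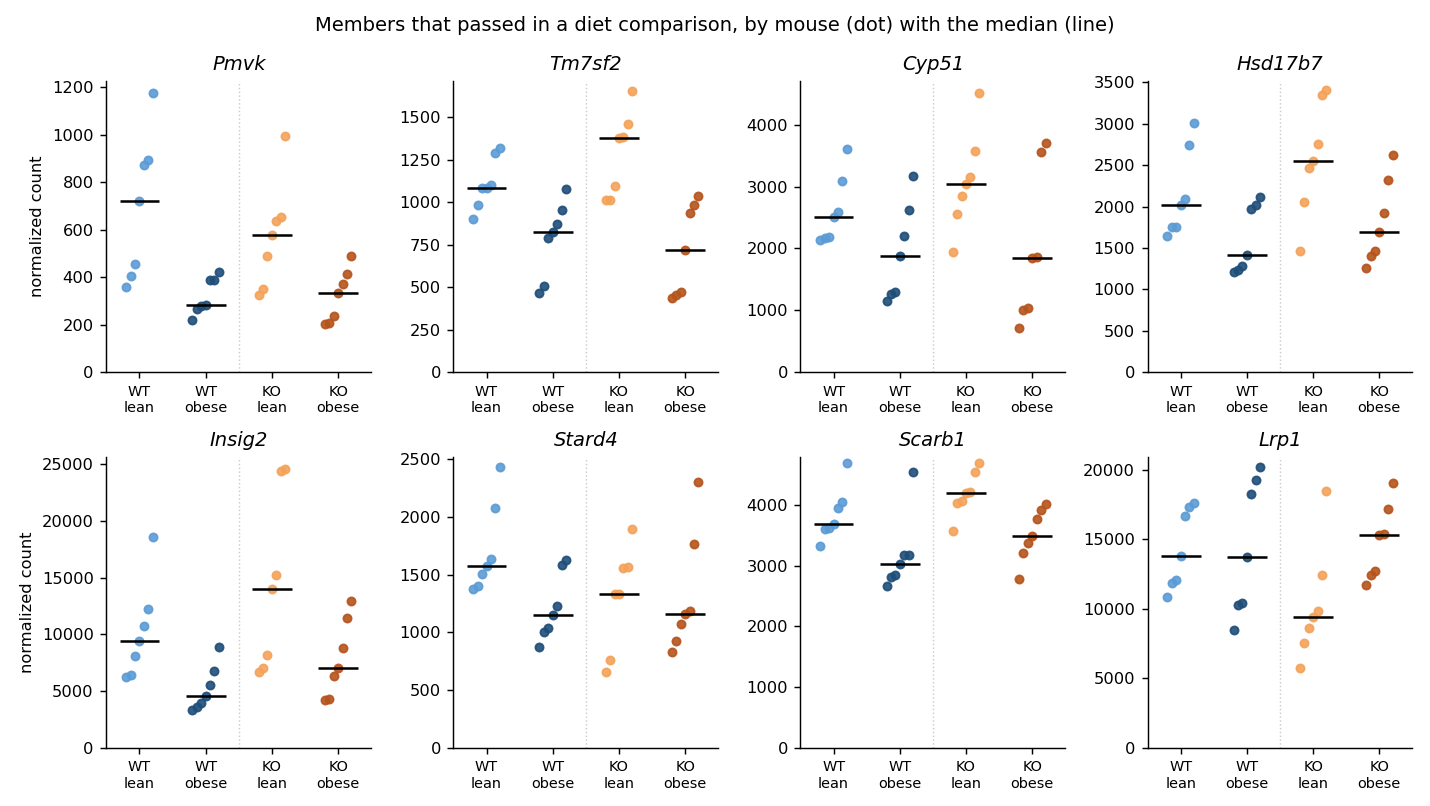
Normalized count (vertical axis, from 0) of the 8 members that passed in a diet comparison, for 7 mice (dots) in each of WT lean, WT obese, KO lean and KO obese, with the median as a line. WT and KO values come from separately scaled tables, divided by a dotted line. In Tm7sf2, 6 of 7 KO obese mice lie below every KO lean mouse, while Lrp1 is higher in KO obese than in KO lean.

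In KO obese against KO lean mice, which puts the same question where the receptor is absent, 6 of 31 members (19.4%) passed, below the 24.1% of the 14213 genes tested. With the replicate block, 1 member (Tm7sf2) and 1057 genes in all passed. Of the 6, 5 were lower and 1 was higher, against 12.1% and 12.0% of all genes. Lower with Pmvk and Tm7sf2 were Cyp51, which demethylates lanosterol, Hsd17b7, a ketosteroid reductase of the late pathway, and Scarb1, the HDL receptor. Lrp1, an endocytic receptor for remnant lipoproteins, was higher. The median over members was -0.19, against 0.00 over all genes. With each library scaled to the same total, the median of all genes moved to 0.14, and 5 members passed, 3 higher and 2 lower. Under that scaling Hmgcs1 and Acat2 joined Lrp1 among the higher genes, and Pmvk and Tm7sf2 were the lower genes. In this comparison 6 of 7 Kupffer cell markers and 3 of 5 sinusoidal endothelium markers also passed as lower. The summed Kupffer cell markers ran from 7223 to 15302 in KO lean mice and from 4025 to 5417 in KO obese mice. None of the 7 had a median of 0 over the mice of both groups together. Their part in the member changes was not tested. With 1 mouse left out, 2 members passed without 14RL, 10R or 31R, and 3 without 9L or 10RL. The count rose to 7 without 23L and to 9 without 20R, of which 2 were higher and 7 lower.

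Cyp51 ran from 1947 to 4519 normalized counts in KO lean mice, with a median of 3037, and from 710 to 3706 in KO obese mice, with a median of 1853. The groups overlapped, and 5 of 7 KO obese mice were below the lowest KO lean mouse. The log2 fold change was -0.86 (standard error 0.33, adjusted p = 0.0807). In WT mice Cyp51 went from a median of 2505, between 2135 and 3602, to a median of 1879, between 1150 and 3174 (log2 fold change -0.50, adjusted p = 0.229). Hsd17b7 ran from 1463 to 3406 in KO lean mice, with a median of 2545, and from 1259 to 2623 in KO obese mice, with a median of 1689 (log2 fold change -0.51, standard error 0.20, adjusted p = 0.0893). These calls were not robust to the choice of mice. Cyp51 and Hsd17b7 each passed in 5 of the 14 fits that left out 1 mouse, and with the block their adjusted p was 0.201 for both. Cyp51 also did not pass by edgeR (log2 fold change -0.66, adjusted p = 0.167) or by DESeq2 (-0.66, adjusted p = 0.125).

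The change in Scarb1 was small. It ran from 3573 to 4691 in KO lean mice, with a median of 4199, and from 2772 to 4017 in KO obese mice, with a median of 3482 (log2 fold change -0.26, standard error 0.10, adjusted p = 0.0875). The call held in 4 of the 14 fits that left out 1 mouse and was lost with the block (adjusted p = 0.231) and by edgeR (adjusted p = 0.111), and with equal totals the log2 fold change was -0.12 (adjusted p = 0.605). In WT mice the log2 fold change was -0.29 (adjusted p = 0.200), and 6 of 7 WT obese mice were below the lowest WT lean mouse. Mouse 22L stood apart there at 4543, against 2656 to 3177 in the other WT obese mice, and was singled out after its value was seen. Without it the log2 fold change was -0.38 (adjusted p = 0.0353), which does not replace the value over all 7 mice. Lrp1 ran from 5752 to 18451 in KO lean mice, with a median of 9418, and from 11691 to 19053 in KO obese mice, with a median of 15318. The groups overlapped, with a single KO obese mouse above the highest KO lean mouse, and the log2 fold change was 0.59 (standard error 0.21, adjusted p = 0.0617). This call was lost with the block (adjusted p = 0.215) and held in 8 of the 14 fits that left out 1 mouse. In WT mice Lrp1 had a log2 fold change of -0.04 (95% interval -0.48 to 0.39, adjusted p = 0.939).

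By limma, Insig2 and Stard4 passed in WT mice and not in KO mice. Insig2 ran from 6228 to 18584 in WT lean mice, with a median of 9438, and from 3314 to 8917 in WT obese mice, with a median of 4600. Of the WT obese mice 5 were below every WT lean mouse, and the log2 fold change was -0.96 (standard error 0.25, adjusted p = 0.0496). Without WT obese mouse 6RL the adjusted p was 0.107, and with the block it was 0.180. In KO mice Insig2 ran from 6710 to 24594 in lean liver, with a median of 13985, and from 4207 to 12935 in obese liver, with a median of 7055 (log2 fold change -0.80, standard error 0.34, adjusted p = 0.113 by limma). Insig2 did pass in KO mice by edgeR (-0.86, adjusted p = 0.0874) and by DESeq2 (-0.87, adjusted p = 0.0412). The KO lean values sorted by identifier number, with 24594 and 24422 in the number 9 mice, 15228 and 13985 in the number 14 mice, and 6710, 8212 and 7039 in the number 20 mice. The difference of the diet effect between genotypes was 0.16 (95% interval -0.76 to 1.08) for Insig2, so neither an equal nor a different effect was shown.

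Stard4 ran from 1374 to 2433 in WT lean mice, with a median of 1577, and from 874 to 1625 in WT obese mice, with a median of 1148. In WT mice 5 of 7 obese animals were below all lean animals, and the log2 fold change was -0.50 (standard error 0.16, adjusted p = 0.0997), a call kept in 3 of the 14 fits that left out 1 mouse and lost with the block (adjusted p = 0.282). In KO mice the log2 fold change was 0.02 (standard error 0.26, adjusted p = 0.960), between 653 and 1897 in lean liver and between 834 and 2303 in obese liver. The difference between genotypes was 0.53 (adjusted p = 0.387), which did not pass.

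By limma, the regulators other than Insig2 did not pass in either diet comparison. Srebf2 ran from 634 to 1260 in WT lean mice, with a median of 926, and from 759 to 1418 in WT obese mice, with a median of 928 (log2 fold change 0.08, 95% interval -0.26 to 0.42). In KO mice it ran from 766 to 1262 in lean liver, with a median of 995, and from 836 to 1258 in obese liver, with a median of 1006 (log2 fold change 0.03, 95% interval -0.25 to 0.32). The medians of Srebf2 thus lay close together, while its interval leaves room for a change of either sign. Insig1, whose transcript SREBP2 raises, ran from 3537 to 7272 in WT lean mice, with a median of 6427, and from 3275 to 11251 in WT obese mice, with a median of 4933 (log2 fold change -0.03, adjusted p = 0.966). In KO mice Insig1 ran from 1973 to 10513 in lean liver, with a median of 5413, and from 2499 to 7986 in obese liver, with a median of 5413 (log2 fold change -0.24, adjusted p = 0.686). Neither genotype separated lean from obese mice by Insig1. Scap ran from 2169 to 2984 in WT lean mice, with a median of 2195, and from 1635 to 2345 in WT obese mice, with a median of 1795. Although 6 of 7 WT obese mice were below every WT lean mouse, its log2 fold change of -0.32 had an adjusted p of 0.104 by limma and 0.111 by edgeR, and it passed by DESeq2 (adjusted p = 0.0516). In KO mice Scap ran from 1912 to 2665 in lean liver, with a median of 2129, and from 1743 to 2429 in obese liver, with a median of 1914 (log2 fold change -0.14, adjusted p = 0.378).

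Hmgcs1, which makes HMG-CoA in the cytosol, and Sqle, which oxidizes squalene, did not pass in either genotype. Hmgcs1 ran from 1029 to 4793 in WT lean mice, with a median of 1581, and from 1457 to 3704 in WT obese mice, with a median of 1862 (log2 fold change 0.21, adjusted p = 0.787). In KO mice it ran from 579 to 3344 in lean liver, with a median of 1479, and from 1624 to 3598 in obese liver, with a median of 2310 (log2 fold change 0.68, standard error 0.30, adjusted p = 0.124). Hmgcs1 was thus the highest of the 31 log2 fold changes in KO mice, against the direction of most enzymes. Sqle ran from 400 to 1521 in WT lean mice, with a median of 693, and from 267 to 1210 in WT obese mice, with a median of 425 (log2 fold change -0.39, adjusted p = 0.617). In KO mice Sqle ran from 337 to 1614 in lean liver, with a median of 703, and from 220 to 1326 in obese liver, with a median of 364 (log2 fold change -0.50, adjusted p = 0.405). The median of Sqle was lower in obese mice of both genotypes, but its spread within each group was wider than the difference.

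The esterifying enzymes did not pass either. Soat1 ran from 55.8 to 113 in WT lean mice, with a median of 76.9, and from 48.0 to 111 in WT obese mice, with a median of 77.4 (log2 fold change -0.10, adjusted p = 0.833). In KO mice Soat1 ran from 88.8 to 154 in lean liver, with a median of 110, and from 80.0 to 134 in obese liver, with a median of 113 (log2 fold change -0.10, adjusted p = 0.690). Soat2 ran from 451 to 850 in WT lean mice, with a median of 534, and from 473 to 581 in WT obese mice, with a median of 513 (log2 fold change -0.10, adjusted p = 0.737). In KO mice Soat2 ran from 460 to 881 in lean liver, with a median of 727, and from 453 to 711 in obese liver, with a median of 586 (log2 fold change -0.27, adjusted p = 0.245). Both genes overlapped between diets in each genotype. For Soat2 in KO mice the overlap was partial, as the lean median of 727 lay above the highest obese mouse, at 711.

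By role, 6 of 9 early enzymes and 8 of 11 enzymes from squalene onward had negative log2 fold changes in WT mice, with 1 of each group passing. In KO mice 6 of 9 and 9 of 11 were negative, with 1 and 3 passing. The highest WT value was that of Msmo1, a methylsterol oxidase, at 0.76 (standard error 0.33, adjusted p = 0.234). The other enzymes that did not pass by limma lay between -0.56 (Idi1) and 0.39 (Acat1) in WT mice. In KO mice, Hmgcs1 aside, they lay between -0.65 (Idi1) and 0.31 (Acat2). Of these, Mvd (-0.55, adjusted p = 0.131 by limma) passed in KO mice by DESeq2 (-0.63, adjusted p = 0.0724). It did not pass by edgeR (-0.62, adjusted p = 0.104). Lcat and Mylip, a ubiquitin ligase that lowers lipoprotein receptors, had log2 fold changes of 0.07 and -0.22 in WT mice and -0.02 and -0.16 in KO mice, and neither passed. In none of the 31 members did all obese mice of a genotype lie outside the range of its lean mice. The share of all genes that separated in this way is not given, so this count is a description only.

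**Figure D2:**
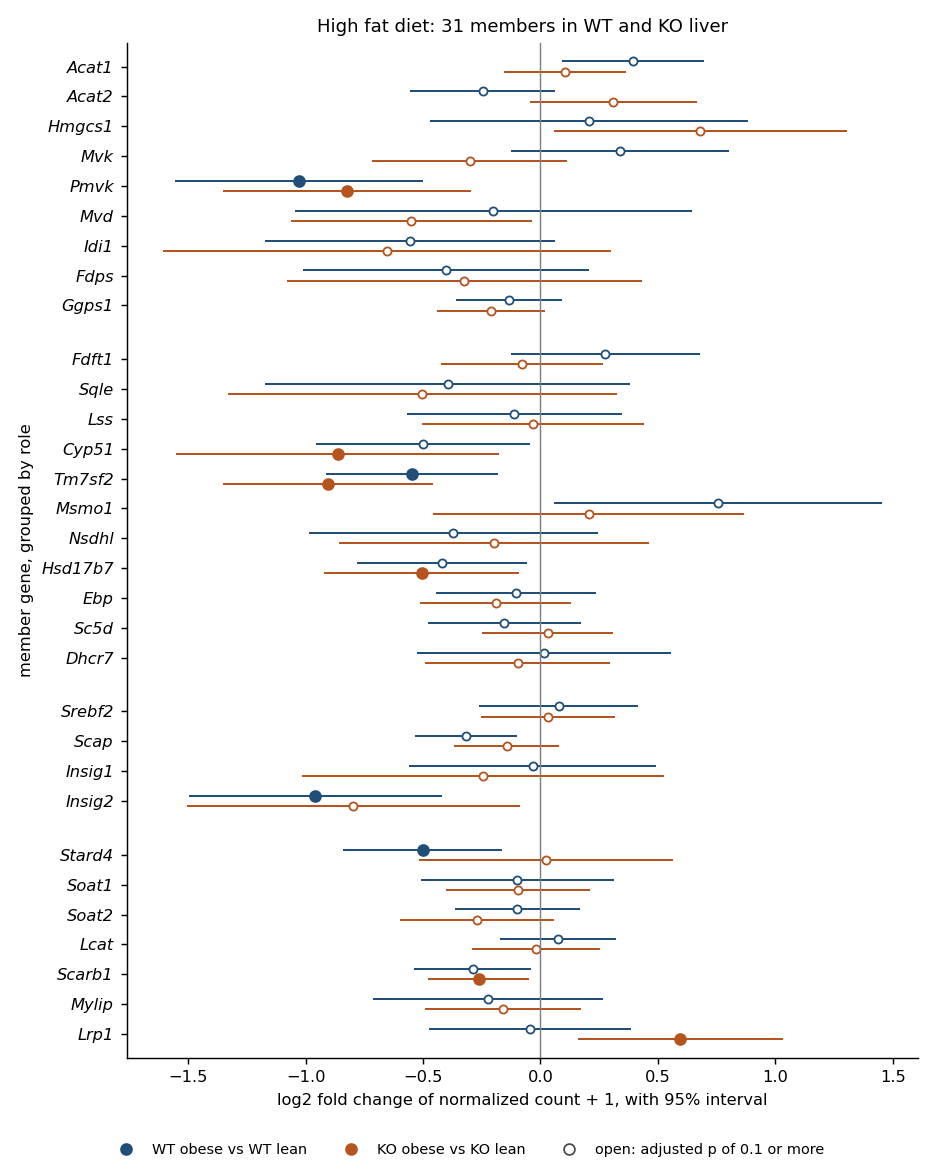
Log2 fold change of normalized count + 1 (horizontal axis) with its 95% interval for the 31 members (vertical axis, by role), in WT obese vs WT lean (blue) and KO obese vs KO lean (orange), 7 mice per group. Filled points passed an adjusted p of 0.1. Pmvk and Tm7sf2 are filled in both colours, and most open intervals include 0.

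The difference between the diet effects of the 2 genotypes was tested directly, and 0 of 31 members passed by limma, edgeR or DESeq2, against 0.00718% of the 13924 genes tested by limma (1 gene), 1 gene by edgeR and 926 by DESeq2. At an unadjusted p of 0.05, 3 of 31 members and 2553 of the 13924 genes were past the threshold by limma. The 3 members were Acat2 (KO minus WT 0.56, standard error 0.23, adjusted p = 0.195), Lrp1 (0.64, standard error 0.30, adjusted p = 0.254) and Mvk (-0.64, standard error 0.30, adjusted p = 0.261). Pmvk differed by 0.21 (95% interval -0.56 to 0.97) and Tm7sf2 by -0.36 (95% interval -0.94 to 0.23). No difference of the diet effect between WT and KO mice was therefore shown for any member, and the intervals of most members are wide.

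Within groups the synthesis enzymes varied more from mouse to mouse than most genes did, and many of them were high or low in the same mice. The median within-group SD over the 20 enzymes lay between 0.40 and 0.56 on the log2 scale, against 0.24 to 0.37 over all genes tested. The widest enzyme was Mvd in WT lean mice (SD 0.83), Sqle in WT obese mice (0.90), Idi1 in KO lean (0.90) and KO obese mice (1.08), and Fdps in WT obese+RvE1 (1.00) and KO obese+RvE1 mice (1.33). Ggps1, which makes the geranylgeranyl unit used to modify proteins, was the narrowest in 4 groups, and Acat1, a mitochondrial thiolase, in the KO obese and KO obese+RvE1 groups. In KO obese mice 14 of the 20 enzymes (70.0%) were lower in all 3 mice of identifier number 10 than in any of the other 4 mice, against 9.07% of all genes. Idi1, the isomerase of isoprenoid units, had 585, 687 and 756 normalized counts in these 3 mice and 1844, 1914, 2151 and 4419 in the other 4, in the table with the RvE1 mice. Fdps, which makes farnesyl diphosphate, had 177, 181 and 247 against 435, 584, 586 and 637. Without the number 10 mice the KO diet log2 fold change was -0.44 for Pmvk (adjusted p = 0.283), -0.47 for Tm7sf2 (adjusted p = 0.0908) and -0.21 for Cyp51 (adjusted p = 0.609). Depth in the number 10 mice was 21193827 to 32996637 reads. The part of whatever the number marks in these values was not tested.

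The same held more weakly elsewhere. In WT obese+RvE1 mice 10 of 20 enzymes (50%) were lower in all 4 mice of number 7 than in any of the 3 mice of number 30, against 21.1% of all genes. In KO obese+RvE1 mice 9 of 20 (45.0%) were higher in both mice of number 23 than in the other 5, against 6.29% of all genes. In KO lean mice 7 of 20 (35.0%) were lower in both mice of number 9, against 7.06%, and in WT lean mice 5 of 20 (25.0%) were higher in both mice of number 8, against 14.0%. In WT obese mice 0 of 20 separated mice of number 6 or of number 27 from the others, in either direction, against 3.70% to 7.61% of all genes. Apart from number 23, each number occurs in 1 group, so the number is nested within the condition.

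KO lean against WT lean mice asks what loss of ChemR23 does to these genes on the control diet. There 4 of 31 members (12.9%) passed, below the 16.3% of the 13031 genes tested. With the replicate block 0 members passed, and the genes passing in all fell from 2123 to 3. All 4 members were lower, against 8.30% of all genes lower and 8.00% higher. They were Acat2, the cytosolic thiolase that opens the pathway, Lrp1, Stard4 and Scap. With each library scaled to the same total, the median of all genes moved to -0.12, and 5 members passed, all lower, with Sc5d added. The median over members was -0.07. All 7 Kupffer cell markers passed as higher, with summed counts from 2693 to 6200 in WT lean mice and from 6554 to 13875 in KO lean mice, and their part in the member changes was not tested. None of the 11 enzymes from squalene onward passed, and their values lay between -0.45 and 0.08.

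Acat2 ran from 851 to 1742 normalized counts in WT lean mice, with a median of 1272, and from 510 to 1117 in KO lean mice, with a median of 859. Of the KO lean mice 3 were below the lowest WT lean mouse, and the log2 fold change was -0.65 (standard error 0.18, adjusted p = 0.0480). Lrp1 ran from 11297 to 18178 in WT lean mice, with a median of 14370, and from 5215 to 16809 in KO lean mice, with a median of 8545. Here 6 of 7 KO lean mice lay below every WT lean mouse (log2 fold change -0.74, standard error 0.21, adjusted p = 0.0509). Stard4 ran from 1426 to 2530 in WT lean mice, with a median of 1629, and from 592 to 1728 in KO lean mice, with a median of 1213 (log2 fold change -0.65, standard error 0.22, adjusted p = 0.0747). Again 6 of 7 KO lean mice were below every WT lean mouse. Scap ran from 2261 to 3095 in WT lean mice, with a median of 2280, and from 1736 to 2418 in KO lean mice, with a median of 1932 (log2 fold change -0.29, standard error 0.11, adjusted p = 0.0975), with 5 KO lean mice below the WT lean range. The calls of Acat2 and Lrp1 were lost without WT lean mouse 21L, WT lean mouse 26R or KO lean mouse 9L (adjusted p up to 0.106 and 0.111). Stard4 passed in 7 and Scap in 3 of the 14 fits that left out 1 mouse. In all, 0 members passed without 21L, 26R or 9L, and 2 without 14RL or 20L. Lrp1 and Stard4 also passed in a diet comparison, and both pairs of comparisons share lean mice, so these calls are not independent of each other.

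In KO obese against WT obese mice 0 of 31 members passed by limma, edgeR or DESeq2, against 0.0141% of the 14162 genes tested (2 genes). By limma, no member and 319 genes had an unadjusted p under 0.05. Of the 31 log2 fold changes 27 were negative, with a median of -0.12, against -0.002 over all genes. The share of all genes with a negative value is not given. All 11 enzymes from squalene onward were negative, between -0.56 (Msmo1) and -0.03 (Hsd17b7). These 11 are among the 14 of 20 enzymes that were lower in all 3 KO obese mice of number 10 than in the other 4. The part of these 3 mice in the genotype values was not tested. Members share mice and vary together, so these counts are a description and carry no test. The extremes were Mvd, the decarboxylase of the mevalonate segment, at -0.64 (95% interval -1.33 to 0.04) and Mylip at 0.42 (95% interval -0.03 to 0.86). Mvd ran from 39.8 to 217 normalized counts in WT obese mice, with a median of 75.6, and from 40.4 to 72.6 in KO obese mice, with a median of 52.5.

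**Figure D3:**
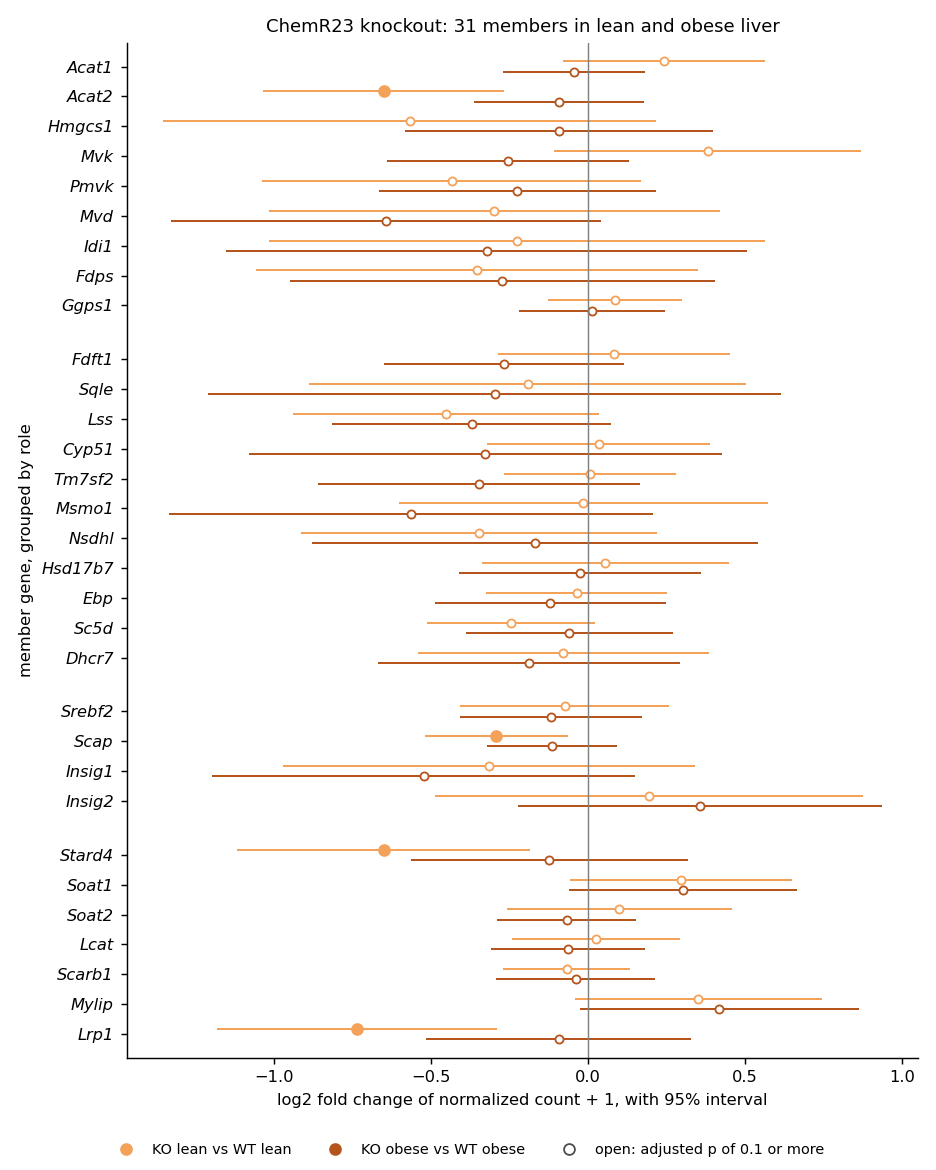
Log2 fold change of normalized count + 1 (horizontal axis) with its 95% interval for the 31 members (vertical axis, by role), in KO lean vs WT lean (light orange) and KO obese vs WT obese (dark orange), 7 mice per group. Filled points, for Acat2, Scap, Stard4 and Lrp1, passed an adjusted p of 0.1 in lean mice, and no dark point is filled.

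RvE1 was compared with vehicle in obese mice of each genotype. In WT mice 0 of 31 members passed by limma, edgeR or DESeq2, and 0% of the 13085 genes tested by limma did (1 gene by edgeR and 25 by DESeq2), with 795 genes and no member at an unadjusted p under 0.05. Among members the lowest adjusted p was 0.874. The values ran from -0.57 (Idi1, 95% interval -1.22 to 0.08) to 0.36 (Insig2, 95% interval -0.07 to 0.79), with a median of -0.03. Idi1 ran from 1253 to 2928 in WT obese mice, with a median of 1476, and from 570 to 2416 in WT obese+RvE1 mice, with a median of 1330. Insig2 ran from 3889 to 10454 in WT obese mice, with a median of 5397, and from 6128 to 9335 in WT obese+RvE1 mice, with a median of 7193. For Insig2 all 7 treated mice lay inside the range of the vehicle mice, and for Idi1 the groups overlapped. The interval of Srebf2 (-0.03, 95% interval -0.30 to 0.25) leaves room for a transcript change of either sign but limits its size. That of Sqle (-0.32, 95% interval -1.11 to 0.48) leaves a change of more than 1 on the log2 scale possible. SREBP2 protein and its processing were not measured.

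In KO mice 0 of 31 members passed by limma, edgeR or DESeq2, and 0% of the 14207 genes tested by limma did (0 by edgeR and 17 by DESeq2), with 1179 genes and no member at an unadjusted p under 0.05. The values ran from -0.86 (Fdps, 95% interval -1.95 to 0.23) to 0.51 (Mvd, 95% interval -0.05 to 1.07), with a median of -0.10. Fdps ran from 177 to 637 in KO obese mice, with a median of 435, and from 70.3 to 1113 in KO obese+RvE1 mice, with a median of 177. Mvd ran from 42.4 to 76.0 in KO obese mice, with a median of 55.1, and from 44.0 to 153 in KO obese+RvE1 mice, with a median of 82.4. The difference of the RvE1 effect between genotypes passed in 0 of 31 members by limma, edgeR or DESeq2, against 0% of the 13059 genes tested by limma and 0 genes by edgeR or DESeq2, with 311 genes and no member at an unadjusted p under 0.05. Each RvE1 comparison shares its vehicle mice with the obese genotype comparison.

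**Figure D4:**
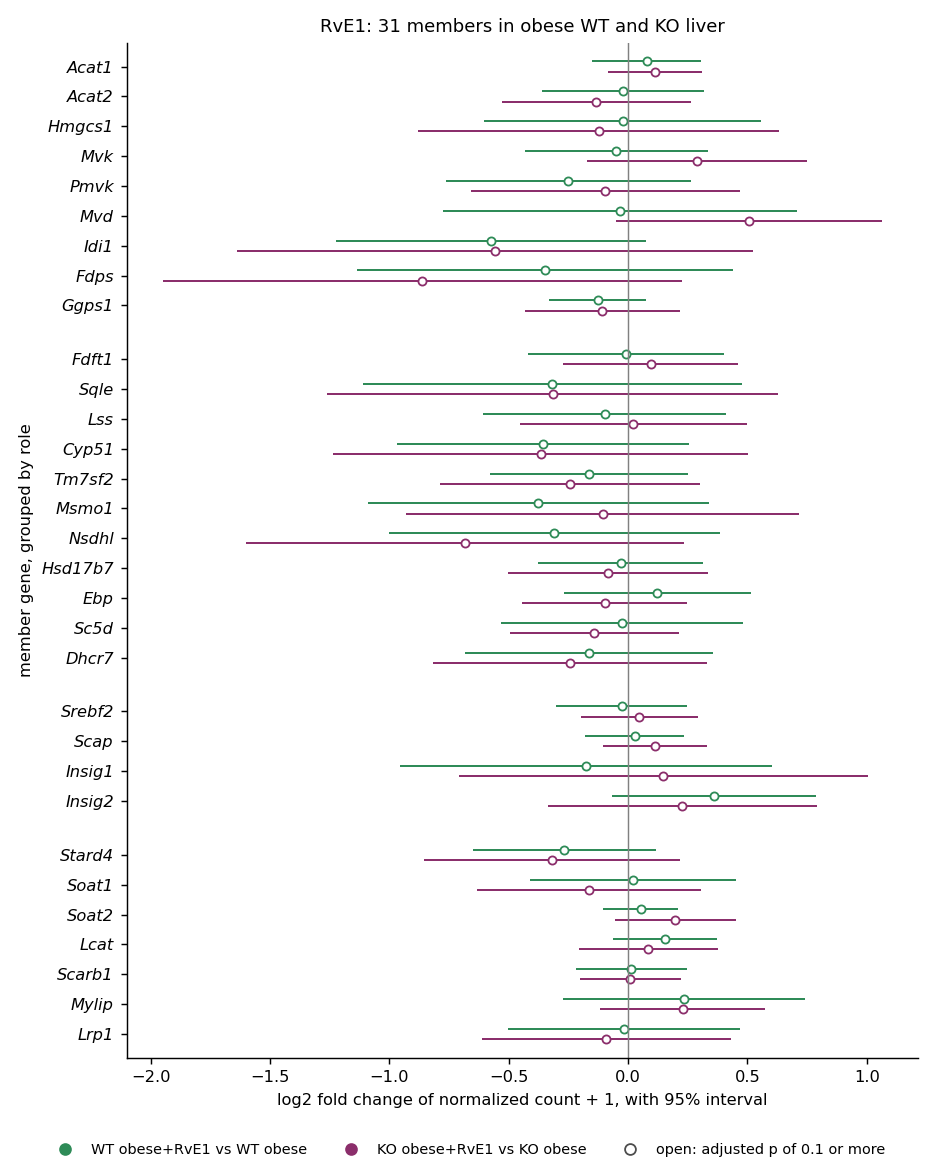
Log2 fold change of normalized count + 1 (horizontal axis) with its 95% interval for the 31 members (vertical axis, by role), in WT obese+RvE1 vs WT obese (green) and KO obese+RvE1 vs KO obese (purple), 7 mice per group. Open points did not pass an adjusted p of 0.1, and no point is filled. The intervals are widest for Fdps, Idi1 and Sqle.

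In each treated group a single mouse stood high through the pathway. KO obese+RvE1 mouse 23-2L was the highest of its 7 mice in 17 of 20 enzymes (85.0%), whereas it was the highest in 20.6% of all genes. It had 16969056 reads, near the bottom of the range. Its Idi1 value was 4880, against at most 1147 in the other 6 mice, and its Cyp51 value was 4427, against at most 1531. Insig1 was 21028 in this mouse and at most 6805 in the others, while Srebf2 was 1288 and at most 1161. Sqle was 1526 in this mouse and at most 570 in the others. WT obese+RvE1 mouse 30RL was the highest in 16 of 20 enzymes (80.0%) and in 14.2% of all genes. Its Fdps value was 1168, and the median of its group was 329. Single mice also led in the groups without RvE1, in fewer enzymes. WT lean mouse 8R was the highest in 11 of 20 (18.2% of all genes), and WT obese mouse 27-2L in 10 (12.7%). KO lean mouse 14-2L was the highest in 9 of 20 (10.5% of all genes), and KO obese mouse 31N in 8 (13.8%).

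Mice 23-2L and 30RL were left out after their values were seen, as the treated mice highest in most enzymes. Lower fold changes without them follow from that choice, and these values do not replace those over all mice. Without mouse 23-2L the median log2 fold change of the 20 enzymes in the KO comparison moved from -0.12 to -0.30, and 17 in place of 15 of them were negative. Fdps then had a log2 fold change of -1.28 (95% interval -2.12 to -0.44, adjusted p = 0.178), and Nsdhl, a dehydrogenase that acts in removing methyl groups from the sterol ring, had a 95% interval of -1.77 to -0.24 (adjusted p = 0.212). Idi1 moved to -0.95 (95% interval -1.82 to -0.08, adjusted p = 0.282). None of the 31 members passed without this mouse. Without mouse 30RL the median in the WT comparison moved from -0.11 to -0.21, 18 of 20 were negative as before, and no member passed.

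**Figure D5:**
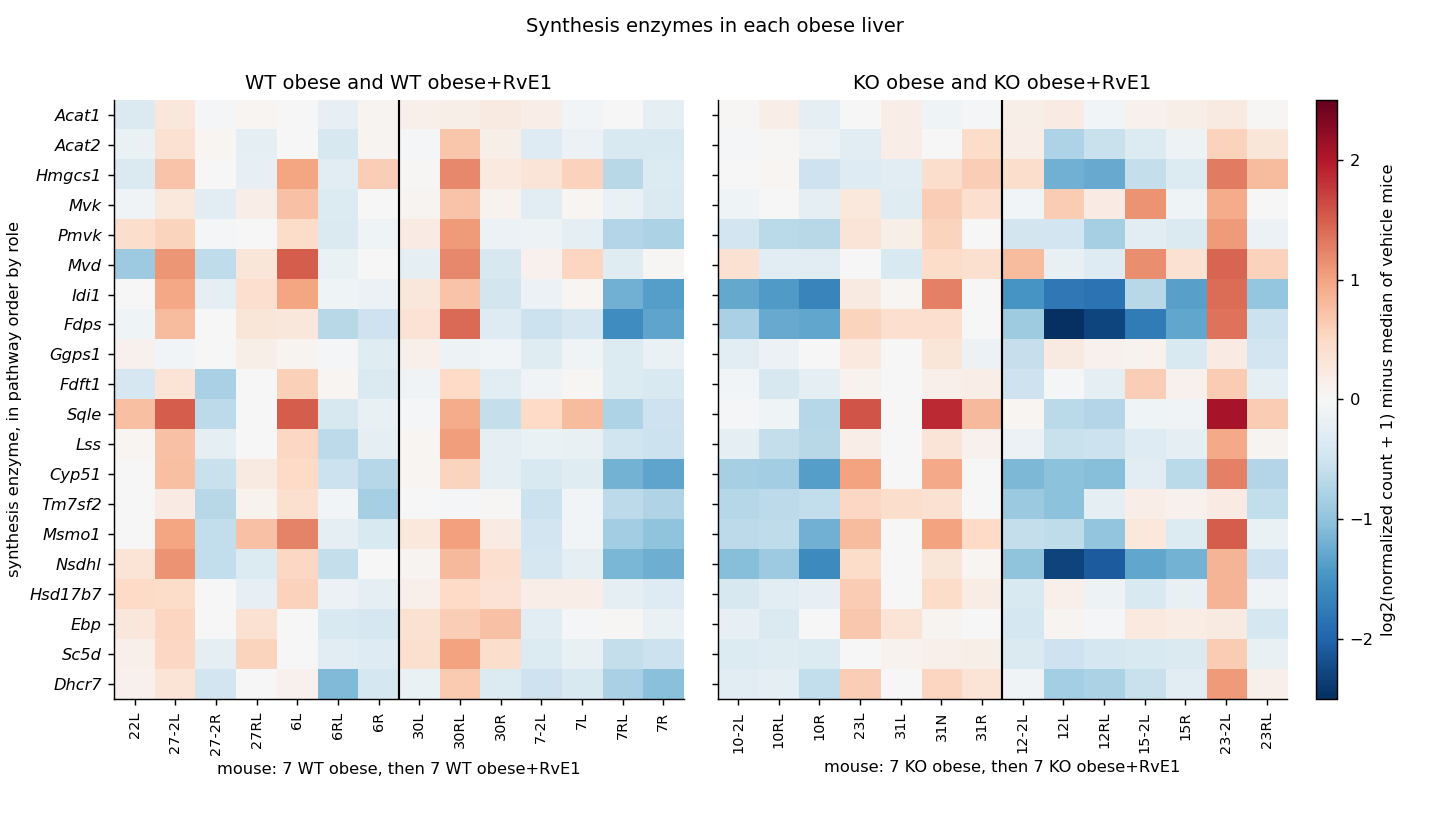
Log2(normalized count + 1) of the 20 synthesis enzymes (rows) in each obese mouse (columns), as the difference from the median of the 7 vehicle mice of the same table (colour, red higher and blue lower). A black line divides vehicle from RvE1 mice. Columns of 1 colour show enzymes moving together within a mouse, as in 23-2L and 30RL (high) and in 10-2L, 10RL and 10R (low).

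Other genes around the pathway were counted from 4 lists. Among 9 genes of SREBP processing and sterol sensing, 1 was lower in WT obese mice, where 2.61% of all genes were, and 3 were lower in KO obese mice, where 12.1% of all genes were, with none higher. Over the 4 lists, 1 of 6 calls in WT obese mice (Rnf145), 4 of 11 in KO obese mice (Pggt1b, Npc2, Lipa and Nceh1) and 0 of 5 in KO lean against WT lean mice held with the replicate block. Rnf145, a ubiquitin ligase that acts on Scap, fell in both diet comparisons, from 919 ± 114 to 536 ± 138 (SD, n = 7) in WT mice (log2 fold change -0.80, adjusted p = 0.00460) and from 770 ± 147 to 560 ± 77.5 in KO mice (-0.45, adjusted p = 0.0313). It was also lower in KO lean than in WT lean mice (-0.46, adjusted p = 0.0471). Rnf139 (-0.47, adjusted p = 0.0382) and Erlin1 (-0.46, adjusted p = 0.0639) were also lower in KO obese mice. Rnf139 was higher in KO lean than in WT lean mice (0.53, adjusted p = 0.0471). Of 4 SREBP2 cofactors, Nfyb was higher in KO obese mice (0.37, adjusted p = 0.0285) and lower in KO lean than in WT lean mice (-0.38, adjusted p = 0.0526).

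Of 13 genes of intracellular sterol handling, 2 were higher and 2 lower in WT obese mice, against 3.65% and 2.61% of all genes, and 1 was higher and 4 lower in KO obese mice, against 12.0% and 12.1% of all genes. Lipa, the lysosomal acid lipase that frees cholesterol from esters, was lower in both (log2 fold change -0.58, adjusted p = 0.0387 in WT and -0.72, adjusted p = 0.00764 in KO). Npc2, which hands lysosomal cholesterol on, was also lower in both (-0.32, adjusted p = 0.0858 and -0.50, adjusted p = 0.0174). Vldlr, a lipoprotein receptor, was higher in both, from 31.4 ± 10.6 to 80.4 ± 53.2 in WT mice (1.19, adjusted p = 0.0419) and from 48.6 ± 25.7 to 149 ± 108 in KO mice (1.33, adjusted p = 0.0681). Lipa and Npc2 are also expressed by macrophages, of whose 7 markers 6 fell in the KO comparison and 0 passed in the WT comparison. Stard5 was higher in WT obese mice (0.46, adjusted p = 0.0312), and Nceh1 (-0.53, adjusted p = 0.0450) and Stard3 (-0.44, adjusted p = 0.0653) were lower in KO obese mice. Of 9 genes of prenylation and the dolichol branch, Rabggta was higher in WT obese mice (0.47, adjusted p = 0.0520), and Pggt1b (0.80, adjusted p = 0.0127) and Zmpste24 (0.26, adjusted p = 0.0818) in KO obese mice. In KO lean against WT lean mice Pggt1b (-0.57, adjusted p = 0.0568) and Rabggtb (-0.53, adjusted p = 0.0357) were lower, as were 8.30% of all genes. None of the genes of these 4 lists passed in the obese genotype comparison or in either RvE1 comparison by limma.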

How the data were processed

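Total RNA of whole liver was sequenced, 1 library per mouse, although the molecule label reads polyA RNA. The authors ran FastQC, Bowtie2 on mm10, featureCounts of Subread and DESeq2. Their versions, the annotation and any use of strand in counting were not given in the sources used here. The authors deposited 6 tables, 1 per pair of groups, each with its own scaling, and the deposited signal values are gene counts divided by size factors. The authors' log2 fold changes, p-values and adjusted p-values in these tables were not used. Whole reads were recovered from the deposited signal for 100% of values, within 0.1 reads, and the recovered counts of a mouse did not differ between tables.

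Values were tested within a table as log2(normalized count + 1) in limma 3.58.1 (R 4.3.3), over genes with a mean of at least 5, with Benjamini-Hochberg adjustment over all genes tested and a threshold of 0.1. For low genes the pseudocount pulls fold changes toward 0. Differences of effects between genotypes were fitted in limma over the 4 groups, from the normalized values of the 2 tables concerned. edgeR 4.0.16 quasi-likelihood and DESeq2 1.42.0 on the recovered counts, other pseudocounts, thresholds, filters and scalings, and each mouse left out were alternatives. The procedure was tested on simulated data. Labels call the mice separate animals, named by a number and letters. Mice of 1 number were treated as a replicate block through an estimated correlation, which was 0.0643 to 0.373 over the comparisons. The split by number was examined after seeing the data. Exon lengths came from GENCODE on GRCm38.

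Some genes of the other pathway lists are not reported here. Members and lists were chosen with earlier results of these data known. The lowest, median and highest mouse are given for members that passed, and for Srebf2, Insig1, Insig2, Scap, Hmgcs1, Sqle, Soat1 and Soat2 in both diet comparisons. Other members are given by role, and those singled out beyond this were chosen after their values were seen.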

Additional observations from a re-analysis of the deposited data

Results flagged for a closer look

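In 9 of 186 sets of 7 mice (31 members in 6 groups, 4.84%) the highest or lowest mouse lay far from the others by Dixon's test, where chance gives about 1 in 20. Of the 9, 6 were in KO obese+RvE1 mouse 23-2L, with normalized counts of 699.6 for Pmvk, 4880 for Idi1, 553 for Lss, 4427 for Cyp51, 3056 for Hsd17b7 and 12746 for Sc5d. The highest of the other 6 mice had 303, 1147, 302, 1531, 1863 and 7194 in the same order. A further 2 were in WT obese+RvE1 mouse 30RL, with 239 for Mvk and 697 for Lss. The last was Scarb1 in WT obese mouse 22L, with 4543 where the other mice had 2656 to 3177.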

How the results depend on the processing

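Of the member counts, those of the obese genotype comparison, both RvE1 comparisons and both differences between genotypes were 0 under every alternative run. In WT obese against WT lean mice, 4 members passed, and 0 with the identifier number as a replicate block. At an adjusted p of 0.05, with a fold threshold of 1.5, with no filter on low counts, with equal totals or by edgeR, 2 passed. By DESeq2 5 passed. Leaving out 1 mouse gave 1 to 7, and leaving out the mice of 1 identifier number gave 0 (number 6 or 27) to 6 (number 8, 3 higher and 3 lower). In KO obese against KO lean mice, 6 passed, and 2 passed at an adjusted p of 0.05 and 1 with the replicate block. By DESeq2 7 passed and by edgeR 5. Leaving out 1 mouse gave 2 to 9 and leaving out 1 number gave 2 to 6. In KO lean against WT lean mice, 4 passed, and 1 passed at an adjusted p of 0.05 and 0 with the replicate block. Leaving out 1 mouse gave 0 to 5 and leaving out 1 number gave 0 (number 9, 21 or 26) to 7 (number 20). The cause was not tested. The block lowered the genes called among all tested from 878 to 279, from 3422 to 1057 and from 2123 to 3 in these comparisons. With equal totals, 2555 genes were called higher and 628 lower in KO obese against KO lean mice, in place of 1704 and 1718, and 392 higher and 1753 lower in KO lean against WT lean mice, in place of 1042 and 1081. In WT obese against WT lean mice the split was 349 and 161 in place of 512 and 366. DESeq2 called 926 genes for the difference of the diet effect between genotypes, none of them a member, where limma called 1. No called member changed sign under any alternative run. Depth varied by mouse, and low genes such as Mvd, Mvk and Soat1 carry the most counting error.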
